A study of Caenorhabditis elegans with 6 samples.

Results

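The Nanos family of C. elegans is described here as 3 of the 46646 genes in a table of iCLIP read counts, chosen by their symbols, nos-1, nos-2 and nos-3. In iCLIP, ultraviolet light crosslinks RNA to the proteins in contact with it, a protein is immunoprecipitated, and the trimmed RNA bound to it is sequenced. The proteins were MEG-3, which forms the gel phase of embryonic P granules, and PGL-1, which forms the liquid phase. Each group had 2 libraries from mixed early embryos of worms grown at 20 °C, crosslinked by 3 exposures to 400 mJ/cm2 and precipitated with an antibody to GFP. MEG-3::GFP embryos carried the allele meg-3(ax3054[meg-3::meGFP]) X and PGL-1::GFP embryos the allele pgl-1(ax3122[pgl-1::GFP]) IV, so both proteins were tagged at their own loci. GFP embryos, the control, came from strain JH1904, unc-119(ed3) III; axIs1374[Ppie1::GFP], which expresses GFP alone from a transgene under the pie-1 promoter, not from either locus. In embryos of mixed stages, fewer cells with an RNA and less RNA per cell cannot be told apart.

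Nanos proteins are zinc-finger RNA-binding proteins that work with Pumilio (PUF) proteins to repress the translation or stability of target mRNAs, and they are needed for germ cell development in many animals. In C. elegans, NOS-2 is made from maternal mRNA in the germline founder cell and acts redundantly with NOS-1, which is made later in primordial germ cells. NOS-3 acts in the adult germline, where it binds the PUF proteins FBF-1 and FBF-2 in the switch from sperm to oocytes. P granules are condensates of RNA and protein in the germ plasm, and nos-2 is among the mRNAs known from in situ hybridization to localize to them.

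All 3 genes lie on chromosome II (RefSeq positions, assembly WBcel235). The gene nos-1 (WBGene00003783, R03D7.7) spans 10951592 to 10953165, 1574 bases with 1 annotated transcript. The gene nos-2 (WBGene00003784, ZK1127.1) spans 7065618 to 7067051, 1434 bases with 1 transcript. The gene nos-3 (WBGene00003785, Y53C12B.3) spans 9746316 to 9750462, 4147 bases with 5 transcripts. The nos-2 gene lies wholly inside the span of him-14, a meiosis gene, at 7065020 to 7069966. him-14 had 0 and 61 reads from MEG-3::GFP embryos, 0 and 3 from PGL-1::GFP embryos and none from GFP embryos, so its counts did not follow those of nos-2, although whether the counting used strand was not given in the sources used here. nos-1 shares 12 bases with gst-5 and nos-3 shares 48 bases with Y53C12B.7, and both of those neighbours had 0 reads in all 6 libraries.

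The libraries differed in depth, with 225609 and 280007 reads on genes for MEG-3::GFP (replicate 1, then replicate 2, here and throughout), 21180 and 92593 for PGL-1::GFP, and 26531 and 14040 for GFP. One read was therefore worth 4.43 and 3.57 counts per 1000000 reads (CPM) for MEG-3::GFP, 47.2 and 10.8 CPM for PGL-1::GFP, and 37.7 and 71.2 CPM for GFP. Genes with a read numbered 3130 and 6461 for MEG-3::GFP, 1025 and 7961 for PGL-1::GFP, and 4170 and 2013 for GFP. These numbers did not follow the totals, and PGL-1::GFP replicate 1 had the fewest. The mRNAs of the tagged proteins checked the labels only in part. The level of meg-3 was 8803 and 2268 CPM for MEG-3::GFP, 5619 and 292 CPM for PGL-1::GFP, and 302 and 0 CPM for GFP, so that PGL-1::GFP replicate 1 was above MEG-3::GFP replicate 2 and PGL-1::GFP replicate 2 was at the GFP level. The level of pgl-1 was 195 and 118 CPM for MEG-3::GFP, 2502 and 259 CPM for PGL-1::GFP, and 0 for GFP. Of 8 markers of early embryos, 7 and 8 had 60 reads or more for MEG-3::GFP, 1 and 3 for PGL-1::GFP, and 4 and 0 for GFP, in libraries of unlike depth. Summed over these markers, the level was 10119 and 14592.5 CPM for MEG-3::GFP, 11520 and 4968 CPM for PGL-1::GFP, and 18205 and 2564 CPM for GFP. It was thus highest in GFP replicate 1 and lowest in GFP replicate 2. Summed over 8 genes of adult or later tissue, the level was 4.43 and 25.0 CPM for MEG-3::GFP, 0 and 259 CPM for PGL-1::GFP, and 339 and 1994 CPM for GFP. Most of those reads were from the muscle myosin gene unc-54, while the yolk genes vit-5 and vit-6, the cuticle gene col-19 and the sperm genes msp-19 and msp-142 were at 0 in every library. The level of the later-tissue genes was thus highest in the GFP libraries, and its part in the differences from GFP below was not tested.

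In the MEG-3::GFP libraries, nos-2 had the most reads of the 3 members and was the one on which the replicates were closest. It had 292 reads in replicate 1 and 289 in replicate 2, which is 1294 and 1032 CPM, and ranked 106 among the 3130 genes with a read in replicate 1 and 128 among the 6461 in replicate 2. nos-3 had 148 and 32 reads, 656 and 114 CPM, and ranked 390 and 2107. nos-1 had 92 and 26 reads, 408 and 92.9 CPM, and ranked 790 and 2464. Replicate 1 was the higher library for all 3 members, but for nos-1 and nos-3 it was higher by far more than for nos-2. The ratio of CPM in replicate 1 to that in replicate 2 was 4.39 for nos-1, 1.25 for nos-2 and 5.74 for nos-3.

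The spread of nos-1 and nos-3 between the MEG-3::GFP replicates was wider than that of most genes, and that of nos-2 was narrower. Among the 1570 genes with a read in both libraries and 60 or more in at least 1 of them, the median difference between replicates was 1.43 on the log2 scale in either direction. That difference was 2.13 for nos-1, 0.33 for nos-2 and 2.52 for nos-3. With its sign kept, the median over the 1570 genes was 0.43 toward replicate 1, slightly above the value of nos-2. A lead of replicate 1 was thus not particular to the family. Of these genes, 12.8% were at least as close as nos-2, 65.8% at least as close as nos-1 and 71.8% at least as close as nos-3. The mean level in MEG-3::GFP was accordingly 250 ± 223 CPM for nos-1, 1163 ± 185 CPM for nos-2 and 385 ± 383 CPM for nos-3 (SD, n = 2). These levels are not corrected for length, and the members are set against each other per length below.

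**Figure D1:**
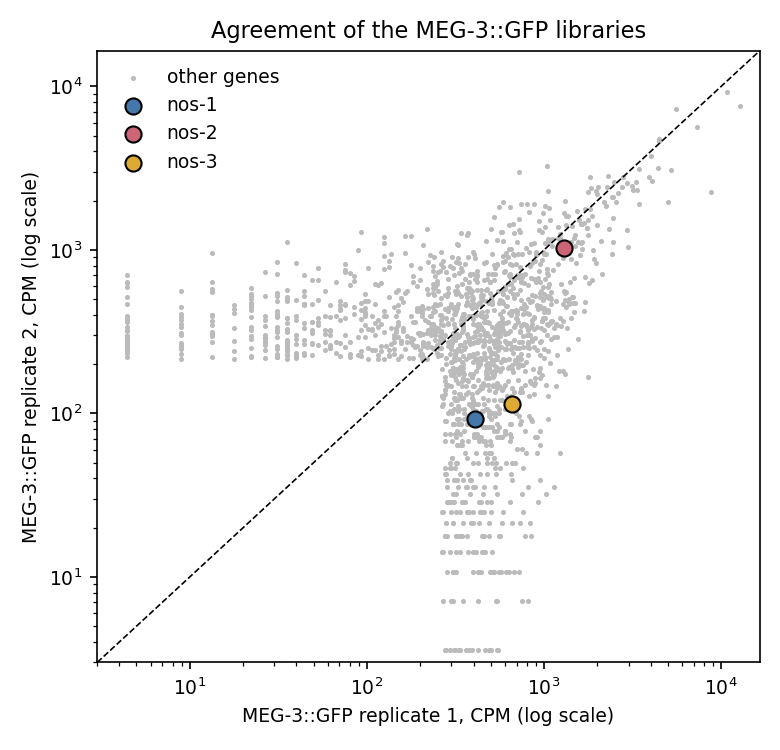
CPM in MEG-3::GFP replicate 2 against replicate 1, on log axes, for the 1570 genes with a read in both libraries and 60 or more in at least 1, with equality as a dashed line. The nos-2 point (1294 and 1032 CPM) lies near the line, while nos-1 (408 and 92.9 CPM) and nos-3 (656 and 114 CPM) lie well below it.

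In the PGL-1::GFP libraries the family was sparse, and nos-2 and nos-3 had similar numbers of reads. nos-3 had 0 and 23 reads, 0 and 248 CPM, and nos-2 had 1 and 21 reads, 47.2 and 227 CPM. nos-1 had 0 and 6 reads, 0 and 64.8 CPM. Almost all of these reads came from replicate 2, where nos-3 ranked 982 and nos-2 ranked 1098 among 7961 genes with a read. The 95% Wilson intervals there were 166 to 373 CPM for nos-3 and 148 to 347 CPM for nos-2, so the read counts of these 2 genes could not be separated in that library. Such intervals cover counting error only.

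In the GFP libraries, reads on nos-2 came from 1 library alone. nos-2 had 25 and 0 reads, 942 and 0 CPM, and ranked 174 among the 4170 genes with a read in replicate 1. nos-1 had 2 reads and 1 read, 75.4 and 71.2 CPM, and nos-3 had 1 and 0 reads, 37.7 and 0 CPM. A count of 0 in GFP replicate 2 allows up to 3 reads, or 214 CPM, which is above the level of nos-3 in MEG-3::GFP replicate 2. A difference of nos-3 between these libraries was therefore not detectable at that depth. The single nos-1 read in GFP replicate 2 has a Wilson interval of 12.6 to 403 CPM, which includes nos-1 in MEG-3::GFP replicate 2. For nos-2 both MEG-3::GFP levels exceeded that limit, but GFP replicate 1 came within the Wilson interval of MEG-3::GFP replicate 2, 920 to 1158 CPM.

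**Figure D2:**
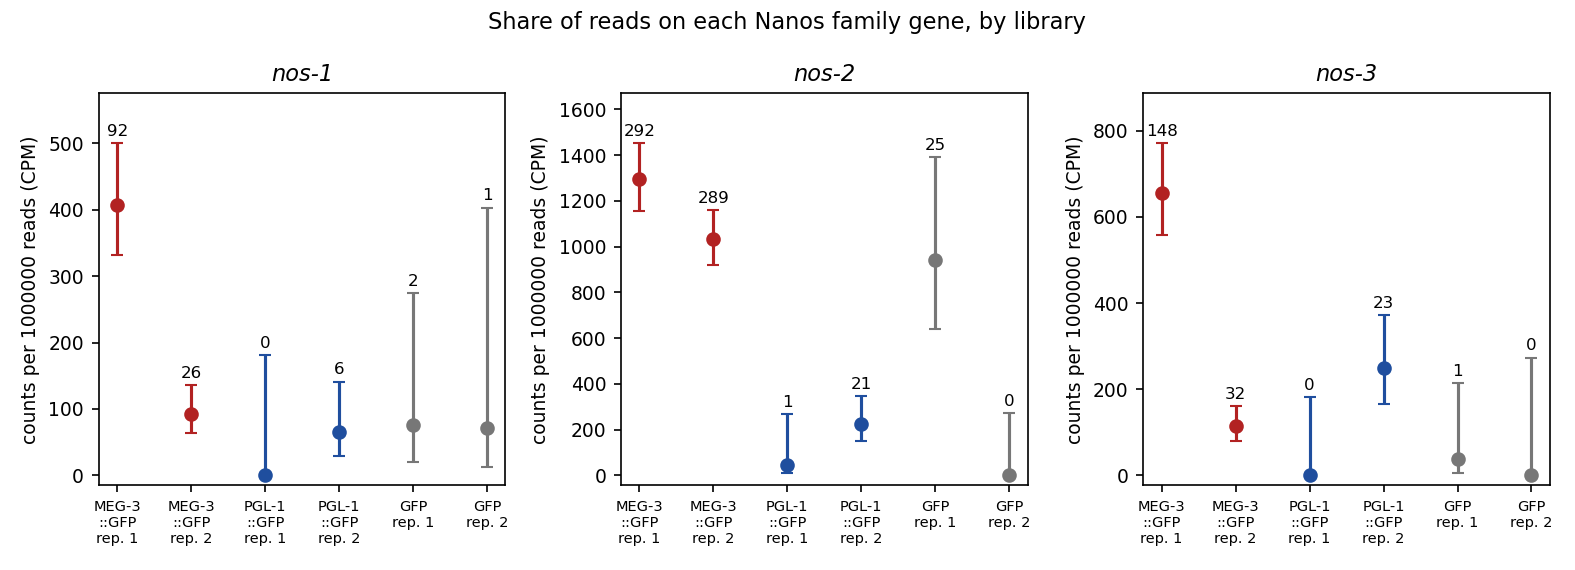
Reads per 1000000 (CPM) on nos-1, nos-2 and nos-3 in each of the 6 libraries, as points with 95% Wilson intervals (counting error only), with the raw number of reads above each point. Both MEG-3::GFP points lie above both GFP points for each gene, by a narrow margin for nos-1 in replicate 2 and for nos-2 against GFP replicate 1, and nos-3 in PGL-1::GFP replicate 2 lies between the MEG-3::GFP points.

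Comparing members inside a library removes the library total from the comparison. The family as a whole took 532 and 347 reads for MEG-3::GFP, 1 and 50 for PGL-1::GFP, and 28 and 1 for GFP. In MEG-3::GFP, nos-2 made up 54.9% of the family reads in replicate 1 (Wilson interval 50.6 to 59.1) and 83.3% in replicate 2 (79.0 to 86.8). The intervals do not overlap, so the family composition differed between the MEG-3::GFP replicates by more than counting error. The mean share of nos-2 was 69.1 ± 20.1% (SD, n = 2). nos-3 held 27.8% and 9.22% of the family reads, and nos-1 held 17.3% and 7.49%.

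In PGL-1::GFP replicate 2 the same shares were 42% for nos-2 (29.4 to 55.8), 46% for nos-3 (33.0 to 59.6) and 12% for nos-1 (5.62 to 23.8), out of 50 reads. The interval of nos-2 overlaps that of MEG-3::GFP replicate 1 and not that of replicate 2. In GFP replicate 1, nos-2 made up 89.3% of 28 reads (72.8 to 96.3), with an interval that overlaps that of MEG-3::GFP replicate 2. PGL-1::GFP replicate 1 and GFP replicate 2 had a single family read each, on nos-2 and on nos-1, and give no composition. The nos-2 shares in PGL-1::GFP replicate 2 and GFP replicate 1 thus lay on either side of the MEG-3::GFP range, each with an interval that overlaps 1 of the MEG-3::GFP replicates.

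**Figure D3:**
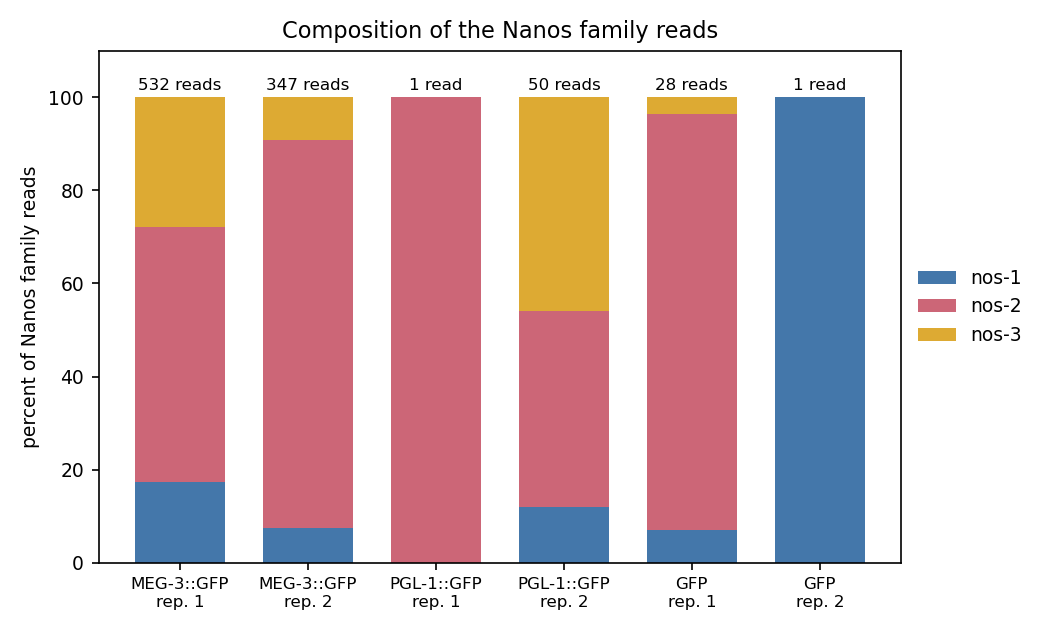
Percent of the family's reads on nos-1, nos-2 and nos-3 in each library, as stacked bars with the number of family reads above each. nos-2 holds 54.9% and 83.3% in MEG-3::GFP, 42% in PGL-1::GFP replicate 2 and 89.3% in GFP replicate 1, and the bars of PGL-1::GFP replicate 1 and GFP replicate 2 rest on 1 read each.

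Levels of different genes can be compared only per length, and the length at hand was that of the gene from start to end, introns included. On that scale nos-2 had 203.6 and 201.5 reads per kilobase in MEG-3::GFP, nos-1 had 58.4 and 16.5, and nos-3 had 35.7 and 7.72. Per length, nos-3 was thus the lowest of the 3, although it had more reads than nos-1. Reads per kilobase of nos-2 over nos-3 were 5.71 in replicate 1 (counting interval 4.67 to 7.0) and 26.1 in replicate 2 (18.1 to 38.9), with a geometric mean of 12.2. Over nos-1, nos-2 was 3.48 and 12.2 times as high per kilobase. The ratio of nos-3 to nos-1 was 0.611 (0.468 to 0.801) in replicate 1 and 0.467 (0.270 to 0.816) in replicate 2, so this pair kept its proportion within counting error while both moved against nos-2.

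In PGL-1::GFP replicate 2, nos-2 over nos-3 was 2.64 per kilobase (1.39 to 4.99), below both MEG-3::GFP values, and its interval overlaps that of MEG-3::GFP replicate 1. nos-3 over nos-1 was 1.45 (0.576 to 4.37). In GFP replicate 1, nos-2 over nos-3 was 72.3 (11.8 to 2968) and rested on a single nos-3 read.

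The study took 60 raw reads in each library of a group as the level above the GFP background. In MEG-3::GFP, 1 of the 3 members, nos-2, reached it in both libraries, while 7.09% of the 9268 genes with a read in any library did. Of those 9268 genes, 3130 had a read in MEG-3::GFP replicate 1. nos-1 and nos-3 reached 60 reads in replicate 1 only. In PGL-1::GFP and in GFP, 0 of the 3 members reached it in both libraries, against 0.194% and 0.0432% of the genes. There 60 reads stand for 2833 and 648 CPM in PGL-1::GFP and 2262 and 4274 CPM in GFP. The highest level of any member in MEG-3::GFP was 1294 CPM. A member at its MEG-3::GFP level could therefore not have reached 60 reads in both libraries of either group, and the threshold does not compare the groups. The count of members moved with the rule, since 30 reads in both MEG-3::GFP libraries gave 2 members, nos-2 and nos-3, and 12.4% of genes, and 60 reads in either gave all 3 members and 18.9% of genes. After each library was scaled to the median total of 59562 reads, nos-2 alone remained at 60 or more in both, with 77.1 and 61.5, among 86 genes (0.928%). On the same scale nos-2 had 2.81 and 13.5 reads for PGL-1::GFP, against 56.1 and 0 for GFP.

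By depth alone, the smaller libraries could have shown nos-2 at its MEG-3::GFP share of reads. At the mean MEG-3::GFP share, 24.6 and 108 reads would be expected on nos-2 in PGL-1::GFP, where 1 and 21 were counted, and 30.9 and 16.3 in GFP, where 25 and 0 were counted. PGL-1::GFP replicate 2 thus fell far short of the expected number, and GFP replicate 1 came close to it. For nos-3, 8.16 and 35.7 reads would be expected in PGL-1::GFP against 0 and 23 counted, and 10.2 and 5.41 in GFP against 1 and 0. For nos-1, 5.30 and 23.2 would be expected in PGL-1::GFP against 0 and 6, and 6.64 and 3.51 in GFP against 2 and 1. With so few expected reads, the smaller libraries resolve nos-1 poorly, and the range between the MEG-3::GFP replicates alone spans 8.60 to 37.8 expected nos-1 reads in PGL-1::GFP replicate 2.

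**Figure D4:**
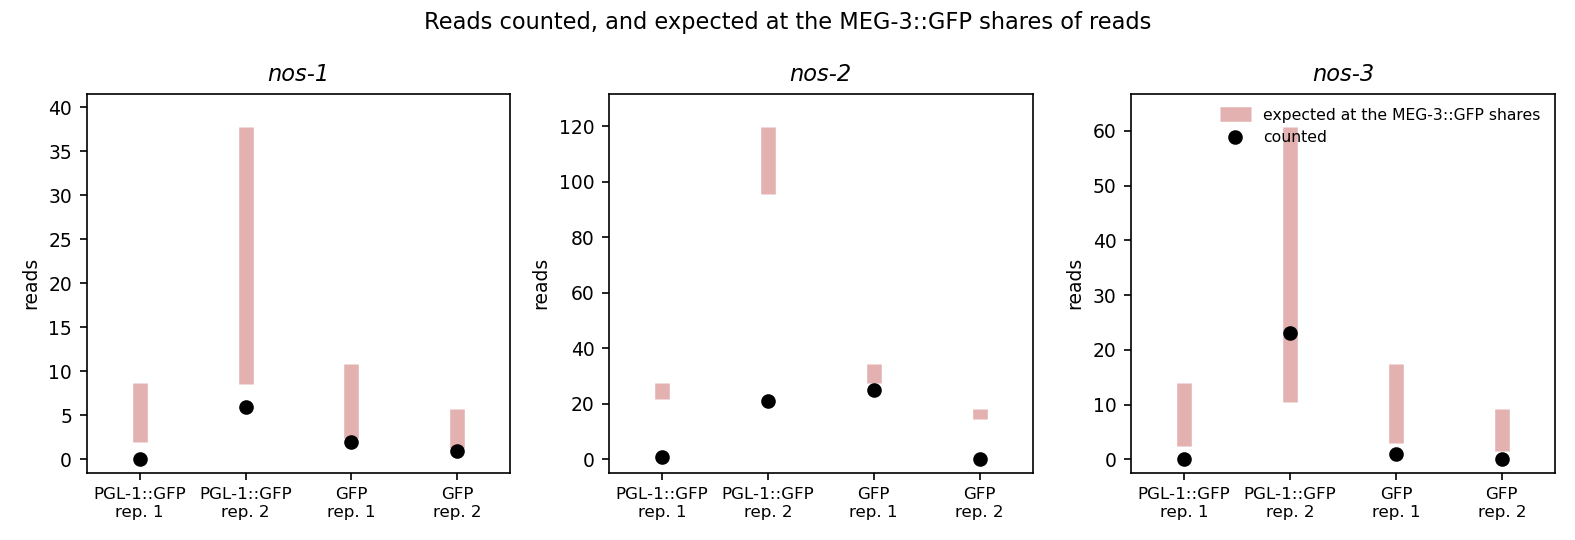
Reads counted (points) on each Nanos family gene in the PGL-1::GFP and GFP libraries, beside the reads expected at the shares found in the lower and the higher MEG-3::GFP replicate (bars). The nos-2 count in PGL-1::GFP replicate 2 (21) lies far below its bar, the nos-3 count there (23) lies inside its bar, and the nos-2 count in GFP replicate 1 (25) lies just below its bar.

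For MEG-3::GFP against GFP, which asks which RNAs crosslink to MEG-3 beyond background, both MEG-3::GFP libraries were above both GFP libraries in CPM for 3 of 3 members, and for 12.3% of the 9268 genes. Only 3130 genes had a read in MEG-3::GFP replicate 1 and could meet this rule, so the share among genes with such a read is larger. nos-1 had 408 and 92.9 CPM in MEG-3::GFP, against 75.4 and 71.2 CPM in GFP. nos-2 had 1294 and 1032 CPM in MEG-3::GFP, against 942 and 0 CPM in GFP. nos-3 had 656 and 114 CPM in MEG-3::GFP, against 37.7 and 0 CPM in GFP. Over summed reads, the share of nos-3 was 14.4-fold higher in MEG-3::GFP than in GFP (exact counting interval 2.56 to 574), that of nos-1 was 3.16-fold higher (1.05 to 15.5) and that of nos-2 was 1.86-fold higher (1.25 to 2.91). These intervals leave out the spread between replicates and rest on 1 nos-3 read, 3 nos-1 reads and 25 nos-2 reads in GFP.

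No gene passed the quasi-likelihood test of edgeR (Benjamini-Hochberg adjustment) in this contrast, with 0% of 2033 genes called. Before adjustment, 63 genes had a p under 0.05, of which 17 were higher and 46 were lower in MEG-3::GFP. DESeq2 called 20 genes, all lower in MEG-3::GFP, and neither nos-2 nor nos-3 was among them. nos-1 was not tested in that DESeq2 fit. The fitted log2 fold change was 1.60 ± 2.32 for nos-2 and 4.34 ± 3.25 for nos-3 (SE; adjusted p = 0.999 each). nos-1 was below the filter on low counts and had 2.16 ± 3.44 in a fit without it (adjusted p = 1). The median over all genes tested was 0.73 with TMM scaling and 0.25 with library size alone, so relative to that median nos-2 stood at 0.87 and 0.94 and nos-3 at 3.61 and 3.63 on these scales. The nos-2 value depended on the GFP library used. It was 0.47 without GFP replicate 2, below the median of 0.61 over all genes in that fit, and 10.3 without GFP replicate 1, where the GFP library left had no nos-2 read and the value is not a bound. Leaving out each library in turn gave 2.95 to 8.54 for nos-3, the lower value without MEG-3::GFP replicate 1 in a fit with no filter, and 1.13 to 2.82 for nos-1. Without GFP replicate 1 the median over all genes tested rose to 5.70. Relative to that median nos-2 stood at 4.57, nos-3 at 2.84 and nos-1, which passed the filter in that fit, at -3.27.

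For PGL-1::GFP against GFP, 0 of the 3 members were higher in both PGL-1::GFP libraries than in both GFP libraries, against 2.61% of genes. Only the 1025 genes with a read in PGL-1::GFP replicate 1 could be, and nos-1 and nos-3 had none there. nos-1 had 0 and 64.8 CPM in PGL-1::GFP, against 75.4 and 71.2 CPM in GFP, where both PGL-1::GFP values are below both GFP values, as for 4.53% of genes. The GFP values stand for 2 reads and 1 read, and a count of 0 in PGL-1::GFP replicate 1 allows up to 141.6 CPM, so no difference was detectable there. nos-2 had 47.2 and 227 CPM in PGL-1::GFP, between the GFP values of 942 and 0 CPM. For nos-3 the groups overlapped at 0, with 0 and 248 CPM in PGL-1::GFP and 37.7 and 0 CPM in GFP. Over summed reads, the PGL-1::GFP share was 0.314 of the GFP share for nos-2 (counting interval 0.169 to 0.580), 8.20 times it for nos-3 (1.33 to 338) and 0.713 of it for nos-1 (0.152 to 4.41). The nos-2 reads of GFP and the nos-3 reads of PGL-1::GFP came from 1 library each. edgeR called 0% of 2033 genes, with 10 higher and 6 lower at an unadjusted p under 0.05, and DESeq2 called 4, all higher in PGL-1::GFP. In this contrast DESeq2 gave nos-2 and nos-3 no adjusted p and nos-1 was below the filter, so no member could be called in that fit. In a DESeq2 fit without the filter no member passed, with an unadjusted Wald p of 0.98 for nos-1, 0.61 for nos-2 and 0.25 for nos-3. The edgeR log2 fold change was -1.57 ± 2.34 for nos-2, 2.76 ± 3.14 for nos-3 (adjusted p = 0.999 each) and -0.48 ± 3.39 for nos-1 without the filter (adjusted p = 1). All 3 directions turned on leaving out a single library, since nos-2 was at 7.08 without GFP replicate 1, nos-3 at -4.30 without PGL-1::GFP replicate 2 and nos-1 at 0.38 without PGL-1::GFP replicate 1. The median over all genes tested moved too, to 4.94 without GFP replicate 1 and -5.75 without PGL-1::GFP replicate 2. Relative to it, nos-2 stood at 2.14 in the former fit. In the latter, nos-3 stood at 1.45, so it did not turn on that scale, and nos-2 at 2.21. With all libraries these relative values were -1.52 for nos-2 and 2.81 for nos-3.

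For MEG-3::GFP against PGL-1::GFP, which compares the proteins of the gel and the liquid phase directly, both MEG-3::GFP libraries were above both PGL-1::GFP libraries for nos-1 and nos-2 and not for nos-3, and for 10.2% of genes. That share is again over all 9268 genes, of which 3130 had a read in MEG-3::GFP replicate 1. nos-2 had 1294 and 1032 CPM in MEG-3::GFP, against 47.2 and 227 CPM in PGL-1::GFP, so that its lower MEG-3::GFP library stood well above the higher PGL-1::GFP one. nos-1 had 408 and 92.9 CPM in MEG-3::GFP, against 0 and 64.8 CPM in PGL-1::GFP. The Wilson interval of the latter value, 29.7 to 141 CPM from 6 reads, includes nos-1 in MEG-3::GFP replicate 2. A count of 0 in PGL-1::GFP replicate 1 allows up to 141.6 CPM, also above that level. nos-3 had 656 and 114 CPM in MEG-3::GFP, against 0 and 248 CPM in PGL-1::GFP, and the groups overlapped. The summed share was 5.94-fold higher in MEG-3::GFP for nos-2 (counting interval 3.89 to 9.56), 4.43-fold higher for nos-1 (1.97 to 12.3) and 1.76-fold higher for nos-3 (1.14 to 2.85). Here too the intervals leave out the spread between replicates.

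Here too edgeR called 0% of 2033 genes, with 26 at an unadjusted p under 0.05, all lower in MEG-3::GFP. DESeq2 called 5, also lower in MEG-3::GFP, and nos-2 was not among them. It gave nos-3 no adjusted p and nos-1 was below the filter, so those members could not be called in that fit. Without the filter neither passed in DESeq2, with an unadjusted Wald p of 0.58 for nos-3 and 0.29 for nos-1. The edgeR log2 fold change was 3.17 ± 2.46 for nos-2, 1.58 ± 2.68 for nos-3 and 2.64 ± 3.42 for nos-1 without the filter (SE; adjusted p = 1 each). The median over all genes tested was 0.88 with TMM scaling and 0.46 with library size alone, and relative to it nos-2 stood at 2.29 and 2.31 and nos-3 at 0.70 and 0.76. Leaving out each library in turn gave 2.21 to 4.86 for nos-2, 0.08 to 8.38 for nos-3 and 1.60 to 7.85 for nos-1. The nos-3 value was 0.08, close to 0, without MEG-3::GFP replicate 1 (in a fit with no filter, since the filter then removed nos-3), 0.42 without PGL-1::GFP replicate 1 and 8.38 without PGL-1::GFP replicate 2, which held all PGL-1::GFP reads of that gene. Whether the members differ among themselves in these fold changes was not tested.

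**Figure D5:**
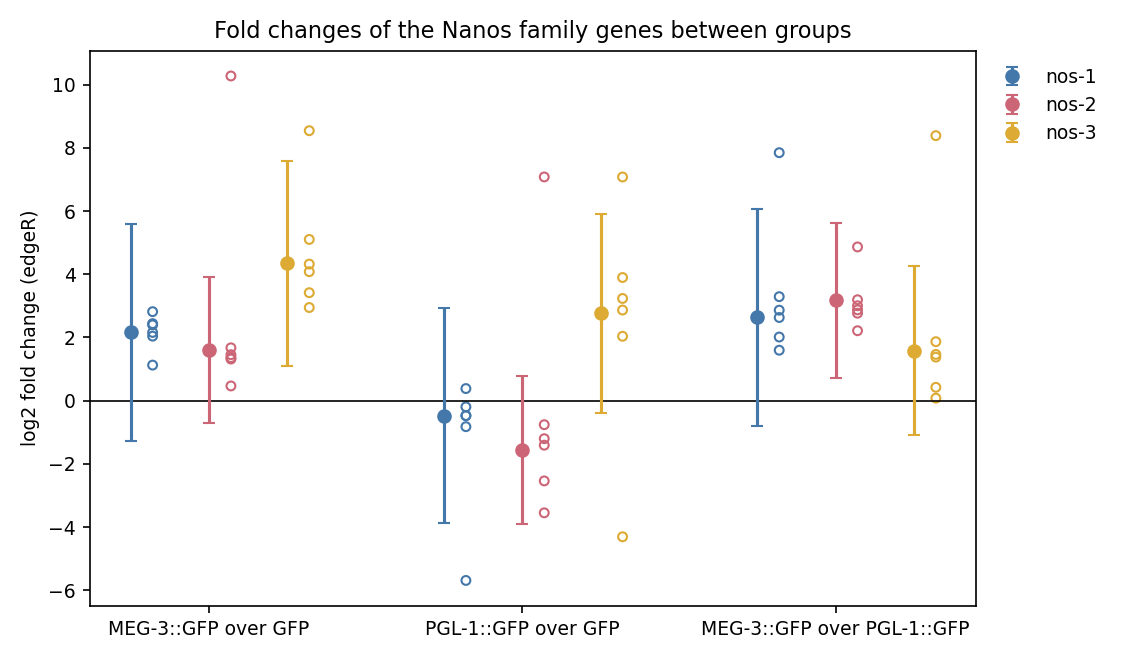
Log2 fold change of each Nanos family gene in 3 contrasts, from edgeR with all libraries (filled points, bars of 1 SE) and with each library left out in turn (open points). For PGL-1::GFP over GFP the open points of all 3 genes fall on both sides of 0, while for the contrasts with MEG-3::GFP on top they stay above 0, down to 0.08 for nos-3 over PGL-1::GFP, and no value passed the adjusted threshold. Points are not set relative to the median over all genes tested, which moves between fits. The contrasts share libraries.

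The partners and regulators of the family were described through a list of 12 genes, namely 5 PUF genes, 6 genes of RNA-binding regulators and 1 Nanos target. In MEG-3::GFP, 8 of the 12 reached 60 reads in both libraries, against 7.09% of genes, and in PGL-1::GFP and GFP 0 did, against 0.194% and 0.0432%. That threshold stands for 266 and 214 CPM in MEG-3::GFP but 2833 and 648 CPM in PGL-1::GFP and 2262 and 4274 CPM in GFP. Summed over the 12 genes, the level was 13386 and 15185 CPM for MEG-3::GFP, 18650 and 5022 CPM for PGL-1::GFP, and 17150 and 1709 CPM for GFP. The sums were thus highest in PGL-1::GFP replicate 1 and GFP replicate 1. The PUF genes that reached 60 reads in both MEG-3::GFP libraries were puf-6 with 153 and 262 reads and puf-7 with 201 and 238. fbf-1 and fbf-2, the PUF partners of NOS-3, had only 4 and 24 reads and 0 and 8 reads in MEG-3::GFP. All 6 regulators reached it, with 573 and 547 reads on oma-2 and 413 and 668 on oma-1, which encode zinc-finger repressors of maternal mRNAs in the oocyte. Of these, spn-4 had 560 and 728 reads, pos-1 512 and 675, mex-3 363 and 403, and gld-1 237 and 644. POS-1 and SPN-4 are known to act on nos-2 translation in the embryo, and the study describes MEX-3 as its repressor before the germline founder cell. lin-15B, whose maternal transcript is a known target of NOS-1 and NOS-2 in primordial germ cells, had 1 and 14 reads.

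In the edgeR fit 10 of the 12 were tested and 0 were called in either direction in any contrast. In MEG-3::GFP over GFP their median log2 fold change was 1.02, beside 0.73 over all genes tested, and 8 of 10 were above 0, against 64.5% of all genes tested. In PGL-1::GFP over GFP it was -0.45, beside -0.05 over all genes, with 3 of 10 above 0, against 48.9%. With MEG-3::GFP set over PGL-1::GFP it was 0.94, beside 0.88, with 8 of 10 above 0, against 66.7%.

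Across the 6 libraries, Pearson's r of log2 CPM was 0.75 between nos-2 and nos-3, 0.58 between nos-1 and nos-2 and 0.77 between nos-1 and nos-3, over 6 libraries that fall into 3 groups of unequal depth. These are descriptions of 6 points and carry no test. nos-1 had a higher r with 362 other genes than with nos-3 and with 1065 than with nos-2, and nos-2 had a higher r with 764 other genes than with nos-3. Among 2547 other genes with at least 60 reads in all, the closest to nos-2 were mex-1 (r = 0.993), hsp-6 (0.993) and pptr-2 (0.990). mex-1, which encodes a zinc-finger protein of the germ lineage, had 368 and 313 reads for MEG-3::GFP, 1 and 22 for PGL-1::GFP, and 17 and 0 for GFP, nearly the counts of nos-2 in each library.

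The closest to nos-1 were eif-2gamma (r = 0.992) and eif-3.E (0.970), which encode translation initiation factors, and unc-37 (0.970), which encodes a Groucho corepressor. eif-2gamma had 165 and 38 reads for MEG-3::GFP, 0 and 6 for PGL-1::GFP, and 2 reads and 1 read for GFP. The closest to nos-3 were F19F10.11 (r = 0.995), Y53F4B.18 (0.995) and cyp-31A3 (0.993). F19F10.11 had 93 and 29 reads for MEG-3::GFP, 0 and 13 for PGL-1::GFP, and 1 and 0 for GFP. The patterns of nos-1 and nos-3 share a high MEG-3::GFP replicate 1, which also leads the counts of the genes nearest to them, whereas the nos-2 pattern has MEG-3::GFP replicates of like size and reads in GFP replicate 1.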

How the data were processed

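The authors clipped adaptors from the iCLIP reads of 6 libraries with fastx_clipper and custom code, aligned them to the ws235 genome with HISAT2 2.1.0 (version per the labels), removed PCR duplicates by barcode and ran HTSeq-count. What they deposited are raw counts for each gene, neither normalized nor pooled. The HTSeq version, its options and the annotation are not given in the sources used here. Of 47085 rows, identifiers on several rows (438) were used as 1 gene. Library totals ranged from 14040 to 280007 reads. A count of 0 was taken to allow 3 reads. That limit and the expected reads treat reads as independent draws at the depth of the library.

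Shares of reads carry 95% Wilson intervals, and ratios of counts exact binomial intervals, for counting error only. Differences between groups were tested on all 46646 genes with edgeR 4.0.16 in R 4.3.3 (TMM, filterByExpr, quasi-likelihood test, Benjamini-Hochberg adjustment) in 1 fit of the 3 groups with no block. DESeq2 1.42.0 was an alternative. The fit kept 2033 genes and estimated a common dispersion of 1.93. Its SE is the absolute log2 fold change over the square root of F. nos-1 fell below the filter and was taken from a fit of 9268 genes without it. Other values were computed in Python 3.11.15 (pandas 2.3.3, numpy 2.4.6, SciPy 1.17.1) and drawn with matplotlib 3.10.9.

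The members, lists and alternatives were chosen with earlier results of these data known. Genes other than members were named as the 3 with the highest Pearson r to a member (log2 CPM, prior count 2), as pathway genes at the threshold of 60 in MEG-3::GFP, as tagged or overlapping genes, or as defining markers. fbf-1, fbf-2 and lin-15B are outside this rule and were named after their values were seen. The labels call the second library of each group a replicate and do not say that cultures were separate. The study calls its MEG-3::GFP iCLIP experiments independent. P-values measure the spread between these libraries, which may be technical in part. The GFP libraries carry another series of library names than the others, and if the names mark a batch, it and the control cannot be told apart. Lengths are RefSeq gene spans (WBcel235). Coding lengths, sequences, mRNA abundance and ribosome occupancy were not analysed here.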

Additional observations from a re-analysis of the deposited data

Results flagged for a closer look

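nos-1 was singled out because its tagged libraries lay on opposite sides of the same GFP libraries, although its reads are too few to show that it moved. Its lower MEG-3::GFP library, at 92.9 CPM, was above both GFP libraries (75.4 and 71.2 CPM), and its higher PGL-1::GFP library, at 64.8 CPM, was below both. The counts in GFP were 2 reads and 1 read, and the 0 reads in PGL-1::GFP replicate 1 allow up to 141.6 CPM, above both GFP values. The difference of MEG-3::GFP from PGL-1::GFP, 2.64 ± 3.42 on the log2 scale, did not pass edgeR's quasi-likelihood test (adjusted p = 1 after Benjamini-Hochberg adjustment).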

How the results depend on the processing

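Of 96 alternative values of the 9 fold changes, 93 kept their direction, and no member passed the threshold under any of them (lowest adjusted p 0.593). The 3 that turned were all in PGL-1::GFP over GFP, with nos-2 at 7.08 without GFP replicate 1, nos-3 at -4.30 without PGL-1::GFP replicate 2 and nos-1 at 0.38 without PGL-1::GFP replicate 1. In the first, the GFP library left had no nos-2 read, and in the second the PGL-1::GFP library left had no nos-3 read. These directions are for values not set relative to the median over all genes tested, which moves between fits. Relative to it, MEG-3::GFP against GFP gave -3.27 for nos-1 without GFP replicate 1 and -0.14 for nos-2 without GFP replicate 2. For MEG-3::GFP against PGL-1::GFP it was -0.02 for nos-2 without PGL-1::GFP replicate 2. For PGL-1::GFP against GFP, nos-2 turned to 2.21 without PGL-1::GFP replicate 2, while nos-3 kept its direction at 1.45. The count of genes called was 0 in each contrast by edgeR and 20, 4 and 5 by DESeq2's Wald test in MEG-3::GFP over GFP, PGL-1::GFP over GFP and MEG-3::GFP over PGL-1::GFP. It was 2 in MEG-3::GFP over GFP with only those groups in the fit, and 0 in all fits that left out 1 library. The cause was not tested. Leaving out each library in turn, PGL-1::GFP over GFP ran from -3.55 to 7.08 for nos-2, -4.30 to 7.08 for nos-3 and -5.69 to 0.38 for nos-1. The count of members at the threshold in MEG-3::GFP was 1 with 60 reads in both libraries, 2 with 30 reads in both and 3 with 60 reads in either, among 657, 1145 and 1754 genes. The nos-2 share of family reads stayed between 54.9% and 83.3%. Its ratio to nos-3, 12.2 per kilobase, was 9.33 from summed reads and 4.22 from raw reads, the last below both replicates (5.71 and 26.1) because no length enters it. With a prior count of 0.5, 2 of the 3 genes nearest to each member remained. The ratio and the share per coding kilobase were not run, and the gene span, chosen after seeing the data, stood in for it, as did the fit without a filter for nos-1 and the ratios of summed reads. nos-3 was filtered out without MEG-3::GFP replicate 1, and nos-2 and nos-3 in the fit of PGL-1::GFP and GFP alone, so their values there come from fits with no filter, an alternative also chosen after seeing the data. Against PGL-1::GFP, nos-3 was at 0.08 without MEG-3::GFP replicate 1. No paired analysis was possible because the labels tie no library of 1 group to a library of another. Depth limits the members most in GFP replicate 2, where 1 read is 71.2 CPM, and in PGL-1::GFP replicate 1, where it is 47.2 CPM. Depth is not the only limit, since PGL-1::GFP replicate 1 had reads on 1025 genes and GFP replicate 1, of like total, on 4170.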
